A study of Mus musculus with 18 samples.

Results

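The genes of cholesterol synthesis, uptake and efflux were followed in mouse hepatocytes of both liver zones through feeding and fasting. The set held 30 genes given as a list of symbols, which were matched to Ensembl identifiers in the deposited table. All 30 were among its 28030 identifiers, and all 30 passed the filter on low counts that left 12477 genes for testing. By role, they comprised 9 enzymes of the mevalonate and isoprenoid steps, 10 enzymes of the sterol steps, 4 sensors and regulators, 3 genes of uptake and intracellular transport, and 4 genes of efflux and esterification.

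The samples were hepatocytes of wild-type (WT) C57BL/6J males aged 12 weeks, kept on normal chow (lab diet #5053). Digitonin, a detergent, was used to isolate cells of the pericentral (PC) zone around the central vein or of the periportal (PP) zone. All mice had been trained for 3 days to fast 16 h overnight and feed 8 h by day, and on the day of the experiment food came with 20% sucrose in the water. Fed mice were killed after 4 h of feeding, at clock hour 13. The other groups then lost food and sucrose and were killed after 8 h at clock hour 21, or after 24 h at clock hour 13. In the 8 h group, fasting and clock hour cannot be told apart. Each of the 6 groups of zone and feeding state held 3 libraries. No label says that these came from separate mice or whether replicate numbers pair the zones, so that p-values measure the spread between these samples, which may be technical.

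As background, cholesterol is built from acetyl-CoA through mevalonate, isoprenoids, squalene and a series of sterols. When the membranes of the endoplasmic reticulum are poor in sterol, SCAP escorts the transcription factor SREBP-2, the product of Srebf2, to the Golgi, where it is cut and released to switch on the synthesis genes. When sterol is plentiful, INSIG proteins hold SCAP back. Feeding and insulin favour synthesis in the liver, whereas ABCG5 with ABCG8 secrete sterol into bile and ABCA1 loads cholesterol onto apolipoprotein A-I.

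Promoter stretches are shown for genes on which the results below turn: Mvd, Hmgcs1, Sc5d and Insig1 fell with fasting, Insig2 rose, and Abca1, an efflux gene, fell. Each runs 5′ to 3′ up to the RefSeq transcription start (assembly GRCm38.p6), or, for Insig1, up to the first annotated exon. Capitals mark the relaxed sterol regulatory element TCACNCNAC, the NF-Y box CCAAT and the E-box CACGTG, on either strand (CCAAT reads ATTGG on the other).
Mvd, chr8:122443423-122443672, minus strand: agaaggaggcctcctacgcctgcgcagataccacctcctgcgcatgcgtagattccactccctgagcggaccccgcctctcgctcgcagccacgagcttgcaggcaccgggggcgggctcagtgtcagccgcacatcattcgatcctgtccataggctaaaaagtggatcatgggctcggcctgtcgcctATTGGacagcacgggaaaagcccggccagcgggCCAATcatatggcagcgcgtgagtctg
Hmgcs1, chr13:119690101-119690350, plus strand: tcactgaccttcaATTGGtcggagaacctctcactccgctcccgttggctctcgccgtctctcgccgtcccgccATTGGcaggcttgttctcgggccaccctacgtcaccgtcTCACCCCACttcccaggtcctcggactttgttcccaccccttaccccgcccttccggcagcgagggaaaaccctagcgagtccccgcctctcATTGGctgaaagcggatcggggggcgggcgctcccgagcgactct
Sc5d, chr9:42264301-42264550, minus strand: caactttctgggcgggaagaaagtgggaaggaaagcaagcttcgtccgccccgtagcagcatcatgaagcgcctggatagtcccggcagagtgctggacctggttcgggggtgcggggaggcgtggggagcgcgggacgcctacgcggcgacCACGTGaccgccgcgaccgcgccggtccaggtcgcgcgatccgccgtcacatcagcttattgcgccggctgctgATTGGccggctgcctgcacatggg
Insig1, chr5:28071162-28071362, plus strand: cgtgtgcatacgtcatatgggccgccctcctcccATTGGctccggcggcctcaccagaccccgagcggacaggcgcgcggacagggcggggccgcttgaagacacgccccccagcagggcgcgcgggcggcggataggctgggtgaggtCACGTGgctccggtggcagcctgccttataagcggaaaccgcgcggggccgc
Insig2, chr1:121332590-121332839, minus strand: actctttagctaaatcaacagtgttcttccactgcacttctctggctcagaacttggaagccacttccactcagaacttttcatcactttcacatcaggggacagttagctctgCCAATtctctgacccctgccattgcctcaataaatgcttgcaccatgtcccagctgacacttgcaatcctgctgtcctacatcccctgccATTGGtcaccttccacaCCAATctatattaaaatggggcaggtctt
Abca1, chr4:53159896-53160145, minus strand: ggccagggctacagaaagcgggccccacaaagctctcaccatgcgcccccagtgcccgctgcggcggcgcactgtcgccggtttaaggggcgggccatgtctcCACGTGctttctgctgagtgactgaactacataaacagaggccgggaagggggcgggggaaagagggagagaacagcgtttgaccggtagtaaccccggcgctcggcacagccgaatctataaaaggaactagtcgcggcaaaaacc
The Hmgcs1 stretch held 1 sterol element, with the letters TCACCCCAC, and 3 NF-Y boxes, whereas Mvd held 2 NF-Y boxes. Insig2 has 3 RefSeq starts in the table; the stretch upstream of the outermost, shown here, held 3 NF-Y boxes, and those of the other 2 held none. The Abca1 stretch held no sterol element and no NF-Y box, but 1 E-box. Sc5d and Insig1 each held 1 NF-Y box and 1 E-box.

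RefSeq windows of 300 bases (250 before and 50 after the start) were given for 24 of the 30 genes. Among them, 21 genes (87.5%) had an NF-Y box in at least 1 window, beside 41.1% of the 27025 genes of the table. The Sp1 box GGGCGG was present in 20 (83.3%, beside 38.2%) and the E-box in 6 (25.0%, beside 8.09%). The strict sterol element TCACNCCAC was found only in Hmgcs1 (4.17%, beside 1.44%), and the relaxed form, which includes the strict one, only in Hmgcs1 and Nsdhl (8.33%, beside 3.15%). These shares describe letters, not bound sites. Stretches that differ from a pattern by 1 letter, such as TCACCCCAT in the Srebf2 window, were not counted.

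The zone labels were checked against marker genes. Summed over 4 pericentral markers, CPM (counts scaled to a common library total by the TMM method) lay between 9305 and 1.83e+04 in the pericentral libraries and between 420.0 and 2044 in the periportal ones. The 4 periportal markers summed to 278–1793 and 3134–5413 CPM, respectively. The 24 h pericentral replicate 2 stood apart: the pericentral marker Glul was at 111 CPM there, against 928 and 707 in its other replicates, and the periportal marker Cyp2f2 at 793 against 345 and 322. Of the 22 cholesterol genes called for 24 h against fed in the pericentral zone, all 22 were also called without that library, with changes that moved by -0.23 to 0.08, and other results that use it are given without it where a call or a count changed. Other libraries also differed from their replicates in some markers. Fed pericentral replicate 3 had Glul at 552 CPM, against 1375 and 1069, and Cyp2f2 at 254.5, against 132 and 152. In 8 h periportal replicate 1 the periportal marker Sds was at 222 CPM, against 629 and 710. The hepatocyte marker Tat was at 964.5 CPM there, against 4445 and 3010. Markers of other liver cells were low but in most groups higher in periportal libraries: the 10 Kupffer cell and leukocyte markers summed to 0.884–7.24 CPM in pericentral and 0.767–29.4 in periportal libraries, the 8 endothelial markers to 4.15–12.6 and 4.20–43.2, and the 7 stellate and fibroblast markers to 0.901–6.23 and 1.25–17. Of the 6 cholangiocyte markers, Epcam was at 0 in all 18 libraries, and the sum (19.5–37.9 and 32.9–56.9 CPM) was carried by Krt7, Sox9 and Spp1. Total counts were 1.84e+07 to 2.64e+07 per library.

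Most of the cholesterol genes fell with fasting in pericentral hepatocytes, and up to 15 of the 30 fell in periportal ones. In pericentral hepatocytes at 8 h, 19 fell and 2 rose by edgeR at an adjusted p under 0.05, where 13.8% of all genes tested were called (6.57% lower, 7.27% higher). Their median log2 fold change was -1.33, beside 0.01 over all genes. At 24 h, 20 fell and 2 rose (background 21.8%, of which 11.1% lower and 10.8% higher, median -1.13 beside 0.01). In periportal hepatocytes 15 fell and 4 rose at 8 h (background 14.4%, of which 6.85% lower and 7.56% higher, median -0.71 beside 0.01), and 12 fell and 4 rose at 24 h (background 19.6%, of which 10% lower and 9.59% higher, median -0.59 beside 0.00). All fold changes are on the log2 scale, and the value after ± is the standard error (SE) of the fit. In these bulk samples, less RNA per cell and fewer cells that carry it cannot be told apart.

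In each zone, the comparisons at 8 h and 24 h share their fed libraries. No call in any of the 4 was made for Tm7sf2, Srebf2, Scap, Mylip, Abcg5 or Soat2. Without the 24 h pericentral replicate 2, 20 genes fell and 3 rose at 24 h in the pericentral zone. Without fed pericentral replicate 3, the highest library for 16 of the 19 synthesis enzymes, 18 fell and 1 rose there at 8 h with a median of -0.95, and 20 fell and 2 rose at 24 h with a median of -0.82. Under library totals of all but the 20 most abundant genes, the median of all genes moved to -0.11 for 24 h against fed in the periportal zone, and 17 of the cholesterol genes fell and 3 rose there, with a median of -0.70. That scaling changed the split between higher and lower calls from 4 and 12 to 3 and 17 in this comparison.

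**Figure D1:**
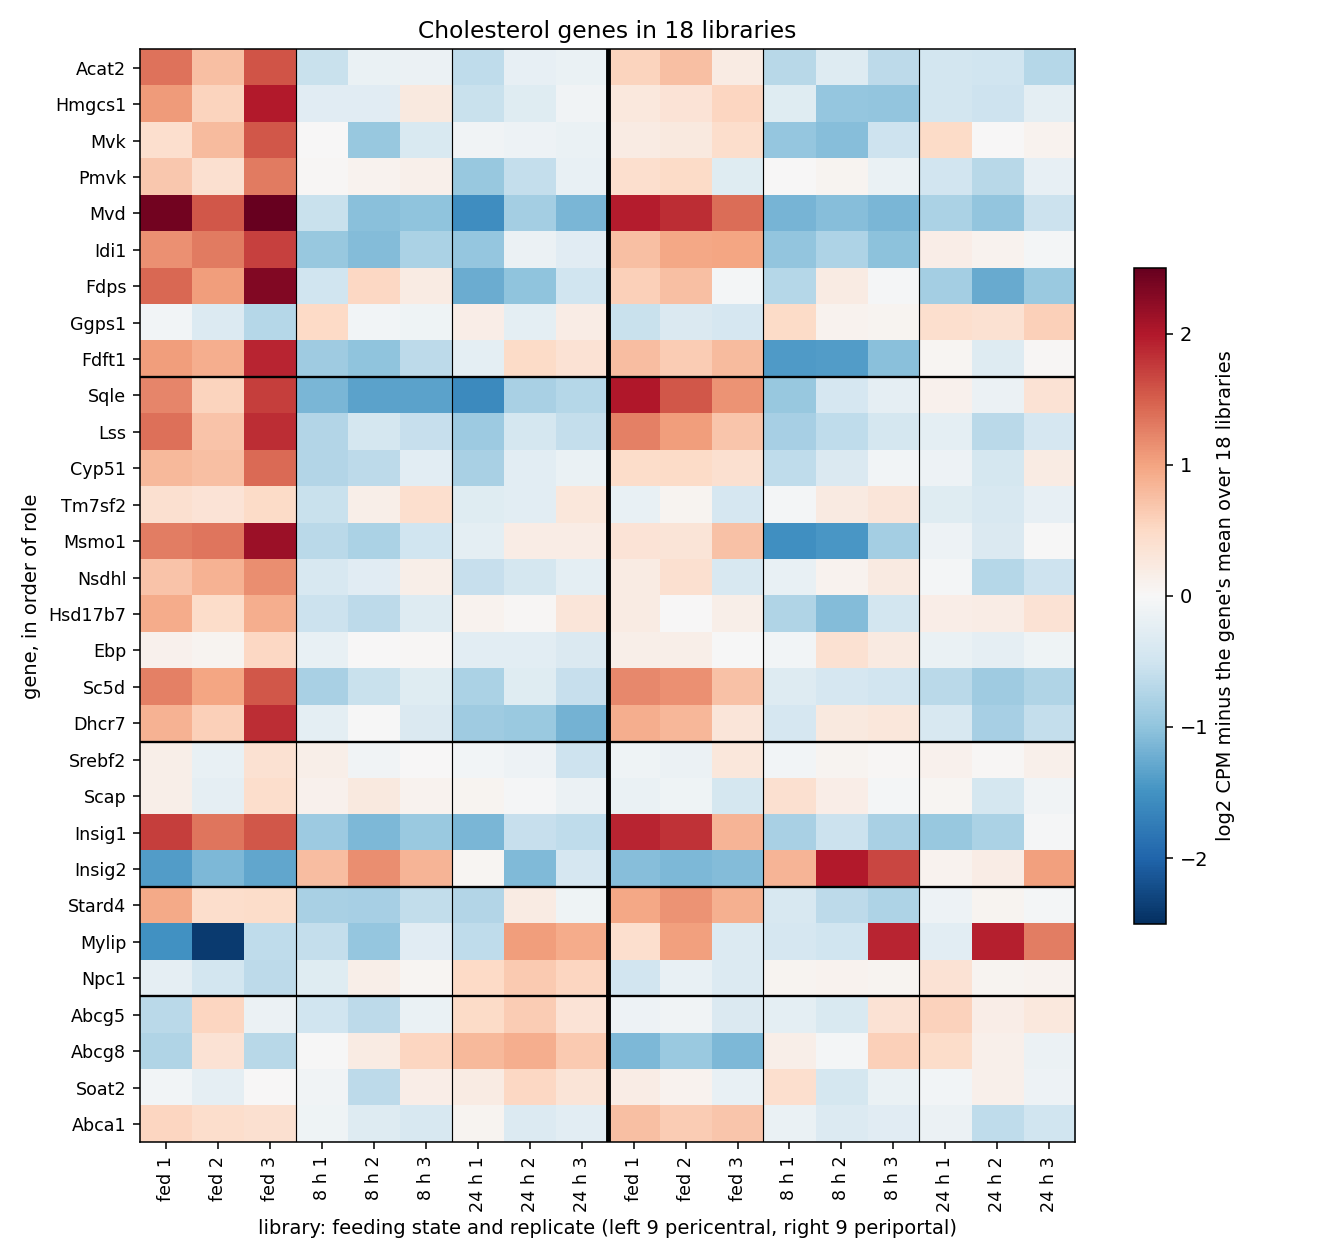
Level of the 30 cholesterol genes (rows, grouped by role) in the 18 libraries (columns, 9 pericentral on the left, 9 periportal on the right), as log2 CPM minus the gene's mean over the 18 libraries, with the colour scale ending at -2.5 and 2.5. The fed libraries are red for most synthesis enzymes, fed pericentral replicate 3 most deeply, while Insig2 shows the reverse.

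The mevalonate steps carry acetyl-CoA to farnesyl diphosphate and squalene. Of the 9 genes, 8 fell in pericentral hepatocytes at 8 h and at 24 h, and none rose. In periportal hepatocytes 6 fell and 1 rose at 8 h, and 5 fell and 1 rose at 24 h. Set medians were -1.54 and -1.59 in the pericentral zone and -1.10 and -0.80 in the periportal zone.

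Mvd, which decarboxylates mevalonate diphosphate (GRCm38 chr8:122433601-122443422, minus strand), fell the most. Its level was 64.7, 35.6 and 74.1 CPM in fed pericentral libraries, 8.15, 5.81 and 5.92 at 8 h and 4.06, 6.58 and 5.39 at 24 h. No fasted library came near a fed one, and 11.4% and 9.19% of the fed mean remained. By edgeR the change at 8 h was -3.13 ± 0.26 (adjusted p = 1.4e-06) and at 24 h -3.44 ± 0.26 (adjusted p = 8.3e-07). Periportal libraries went from 47.3, 43.5 and 31.9 CPM in the fed state to 5.33, 5.69 and 5.36 at 8 h and 6.93, 6.03 and 8.28 at 24 h, again without overlap (-2.90 ± 0.26 with adjusted p = 4.1e-06 and -2.53 ± 0.25 with adjusted p = 9.2e-06).

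Idi1, the isomerase that makes dimethylallyl diphosphate, was at 315, 349 and 469 CPM in fed pericentral libraries and 73.7, 66.9 and 82.4 at 8 h. These groups lay far apart (edgeR log2 fold change -2.35 ± 0.19 SE, adjusted p = 7.9e-07), and the 24 h libraries, at 72.6, 129 and 117 CPM, were also below every fed one (-1.83 ± 0.18 with adjusted p = 6.2e-06). In the periportal zone it fell at both times (-1.83 ± 0.18 with adjusted p = 8.2e-06 and -0.83 ± 0.18 with adjusted p = 0.0038). Fdft1, squalene synthase and the first enzyme committed to sterols, measured 116, 105 and 211 CPM fed and 30.3, 27.8 and 35.6 at 8 h in the pericentral zone. The groups did not overlap (edgeR log2 fold change -2.20 ± 0.24 SE, adjusted p = 2.8e-05), and at 24 h the change was smaller, -1.13 ± 0.23 (adjusted p = 0.0028). Periportal Fdft1 changed by -2.02 ± 0.24 (adjusted p = 6.5e-05) and -0.80 ± 0.23 (adjusted p = 0.024). The last of these calls was lost without any 1 of fed periportal replicates 1 and 3 and 24 h periportal replicates 2 and 3 (-0.85 to -0.69).

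Acat2 and Hmgcs1 catalyse the entry steps. Acat2, the cytosolic thiolase, went from 185, 122 and 214 CPM in fed pericentral libraries to 46.6, 62.1 and 64.1 at 24 h, with no overlap (edgeR log2 fold change -1.59 ± 0.20 SE, adjusted p = 5.4e-05). It fell by a log2 fold change of -1.54 ± 0.20 at 8 h, and by -1.07 ± 0.20 and -1.07 ± 0.20 in the periportal zone (adjusted p from 0.00011 to 0.002). Hmgcs1, the cytosolic HMG-CoA synthase (GRCm38 chr13:119690379-119708260, plus strand), was at 296, 207 and 561 CPM fed and 96.1, 114 and 132 at 24 h. Fed replicate 3 was well above the other fed pericentral libraries, and all 24 h libraries were below them (edgeR log2 fold change -1.64 ± 0.29 SE, adjusted p = 0.0012, and -1.41 ± 0.29 with adjusted p = 0.0044 at 8 h). Periportal Hmgcs1 fell at 8 h (-1.10 ± 0.29 with adjusted p = 0.02). That call was lost without fed periportal replicate 3 (-1.02), 8 h periportal replicate 2 (-0.98) or 8 h periportal replicate 3 (-0.98). At 24 h the gene was not called with all libraries (-0.79, adjusted p = 0.07), but was without fed pericentral replicate 2 (-0.79) or replicate 3 (-0.79). The 24 h fall was also called with only the groups compared in the fit (edgeR adjusted p = 0.002). So it was by the DESeq2 Wald test (adjusted p = 0.025) and under some other settings.

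The kinases of the pathway, Mvk and Pmvk, fell in pericentral cells. Mvk, which phosphorylates mevalonate, stood at 19.1, 24.8 and 41.7 CPM in fed pericentral libraries and 14.3, 7.3 and 10.9 at 8 h, all lower (edgeR log2 fold change -1.39 ± 0.26 SE, adjusted p = 0.002, and -1.13 ± 0.26 with adjusted p = 0.0055 at 24 h). In the periportal zone it fell at 8 h (-1.14 ± 0.27 with adjusted p = 0.0096), whereas 24 h libraries, at 19.8, 14.4 and 15.2 CPM, overlapped the fed ones, at 16.4, 16.9 and 19.3. Pmvk, which adds the next phosphate, went from 59.8, 49.8 and 92.3 CPM fed to 19.3, 24.9 and 33.2 at 24 h in the pericentral zone, without overlap (edgeR log2 fold change -1.38 ± 0.24 SE, adjusted p = 0.0009). Its fall at 8 h (-0.76 ± 0.24 with adjusted p = 0.044) was lost without any 1 of fed pericentral replicates 1 and 3, fed periportal replicate 1, 8 h pericentral replicates 1, 2 and 3, 8 h periportal replicates 1, 2 and 3, 24 h pericentral replicate 2 and 24 h periportal replicate 1 (-0.83 to -0.47). In periportal cells its change at 24 h (-0.68) was called only without any 1 of fed pericentral replicates 2 and 3, fed periportal replicate 3 and 24 h pericentral replicates 1 and 3 (-0.90 to -0.68) or under other scalings and tools.

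Fdps, which makes farnesyl diphosphate, fell at both times in pericentral cells. Levels there were 462, 353 and 844 CPM fed, 120.4, 243 and 196 at 8 h and 71.6, 84.5 and 121 at 24 h. Fed replicate 3 was the highest of all 18 libraries, and no fasted library reached the fed ones (edgeR log2 fold change -2.58 ± 0.37 SE, adjusted p = 0.0002 at 24 h, and -1.57 ± 0.35 with adjusted p = 0.0079 at 8 h). In periportal cells it was called only at 24 h (-1.48 ± 0.35 with adjusted p = 0.0092). Ggps1, which diverts farnesyl diphosphate to geranylgeranyl diphosphate for protein prenylation, moved the other way. Fed periportal libraries were at 3.67, 4.23 and 4.04 CPM and 24 h libraries at 7.32, 7.15 and 8.28, all higher (edgeR log2 fold change 0.93 ± 0.20 SE, adjusted p = 0.0044). Its rise at 8 h (0.68 ± 0.21 with adjusted p = 0.034) was lost without any 1 of fed periportal replicates 1, 2 and 3 and 8 h periportal replicate 1 (0.53 to 0.73) and under library totals of all but the 20 most abundant genes. The pericentral changes of Ggps1, 0.50 and 0.40, were not called.

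The 10 enzymes of the sterol steps take squalene to cholesterol. In pericentral hepatocytes 8 fell at 8 h and 9 at 24 h, and in periportal ones 6 and 4. None rose. Set medians were -1.49 and -1.50 in the pericentral zone and -0.83 and -0.59 in the periportal zone.

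Sqle, the squalene epoxidase and a rate-controlling step, fell the most of these at 8 h. It measured 141, 88.9 and 200.3 CPM in fed pericentral libraries and 27.3, 23.9 and 23.6 at 8 h, far below (edgeR log2 fold change -2.52 ± 0.32 SE, adjusted p = 0.00013). At 24 h the change was -2.24 ± 0.32 (adjusted p = 0.0002), and in the periportal zone -2.10 ± 0.31 (adjusted p = 0.00053) and -1.48 ± 0.31 (adjusted p = 0.0038). Lss, which closes the rings of lanosterol, stood at 140.1, 88.2 and 195 CPM fed and 28.5, 39.8 and 35.5 at 24 h in the pericentral zone. These groups did not overlap (edgeR log2 fold change -2.03 ± 0.24 SE, adjusted p = 3.4e-05), and the falls at the other times and zone were -1.97 ± 0.24, -1.65 ± 0.23 and -1.46 ± 0.23. Sc5d, the sterol C5 desaturase (GRCm38 chr9:42251595-42264256, minus strand), fell at both times. It went from 903, 750.1 and 1107 CPM fed to 217, 259 and 306 at 8 h and 219, 308 and 253 at 24 h, with all fasted libraries lower (edgeR log2 fold change -1.82 ± 0.17 SE, adjusted p = 4.3e-06 at 24 h, and -1.82 ± 0.17 with adjusted p = 4.4e-06 at 8 h). The periportal changes were -1.44 ± 0.17 (adjusted p = 4e-05) and -1.81 ± 0.17 (adjusted p = 6.6e-06).

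Msmo1, the C4 methyl oxidase, measured 260.3, 271 and 476 CPM in fed pericentral libraries and 67.2, 62 and 76.1 at 8 h, without overlap (edgeR log2 fold change -2.30 ± 0.24 SE, adjusted p = 1.6e-05). It was still lower at 24 h (-1.59 ± 0.23 with adjusted p = 0.0002), and in periportal cells it fell at 8 h (-1.72 ± 0.23 with adjusted p = 0.00019) but was not called at 24 h (-0.63) except without fed pericentral replicate 3 (-0.64) or 8 h periportal replicate 3 (-0.63) and under some other settings. Its partner enzyme in C4 demethylation, Nsdhl, was at 84.8, 94.4 and 116 CPM fed and 34.6, 38.5 and 43.5 at 24 h in the pericentral zone, all lower (edgeR log2 fold change -1.34 ± 0.22 SE, adjusted p = 0.00044, and -1.08 ± 0.21 with adjusted p = 0.0029 at 8 h). In periportal cells Nsdhl was called only at 24 h and only without fed periportal replicate 3 (-0.72) or 24 h periportal replicate 1 (-0.72). Hsd17b7, the keto-reductase of the same complex, stood at 139, 99.3 and 136 CPM fed and 50.3, 45.9 and 58.4 at 8 h, without overlap (edgeR log2 fold change -1.28 ± 0.15 SE, adjusted p = 3.9e-05). The later pericentral change was -0.64 ± 0.15 (adjusted p = 0.0057). Periportal Hsd17b7 fell at 8 h (-0.87 ± 0.15 with adjusted p = 0.0011), and the 24 h mean was 109% of the fed mean.

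Cyp51, the lanosterol demethylase, was at 275, 266 and 418 CPM in fed pericentral libraries and 94.3, 99.7 and 131 at 8 h, all lower (edgeR log2 fold change -1.56 ± 0.22 SE, adjusted p = 0.00017, and -1.42 ± 0.22 with adjusted p = 0.00028 at 24 h). Its periportal fall at 8 h (-0.79 ± 0.21 with adjusted p = 0.022) was lost without any 1 of fed periportal replicates 1 and 2 and 8 h periportal replicates 1 and 2 (-0.78 to -0.65). At 24 h the periportal change of Cyp51 was not called (-0.54, edgeR adjusted p = 0.089). It was called under library totals of all but the 20 most abundant genes (edgeR adjusted p = 0.023). It was also called with only the groups compared (edgeR adjusted p = 0.036) or a replicate block (edgeR adjusted p = 0.015). Dhcr7, which completes cholesterol by reducing a double bond of the ring, went from 101, 83.9 and 198 CPM fed to 29.6, 29 and 24.2 at 24 h. The 24 h libraries were far below the fed ones (edgeR log2 fold change -2.21 ± 0.29 SE, adjusted p = 9.8e-05, and -1.42 ± 0.28 with adjusted p = 0.0033 at 8 h). Periportal Dhcr7 was called at 24 h (-1.30 ± 0.28 with adjusted p = 0.0046), and at 8 h only without fed pericentral replicate 3 (-0.63). Ebp, the sterol isomerase, moved little. Pericentral levels were 168, 165 and 223 CPM fed and 129, 130.0 and 122 at 24 h, lower in each library (edgeR log2 fold change -0.54 ± 0.12 SE, adjusted p = 0.0046), and that fit called no other fasting comparison with the fed state. Under library totals of all but the 20 most abundant genes, periportal Ebp was called at 24 h (-0.37, edgeR adjusted p = 0.023). Tm7sf2, a sterol C14 reductase, was called in no fasting comparison with all libraries in the fit, with group means between 105 ± 7.18 and 172 ± 9.02 CPM (SD, n = 3). Its pericentral change at 24 h (-0.48) was called without 8 h pericentral replicate 1 (-0.49) or 24 h pericentral replicate 3 (-0.69).

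**Figure D2:**
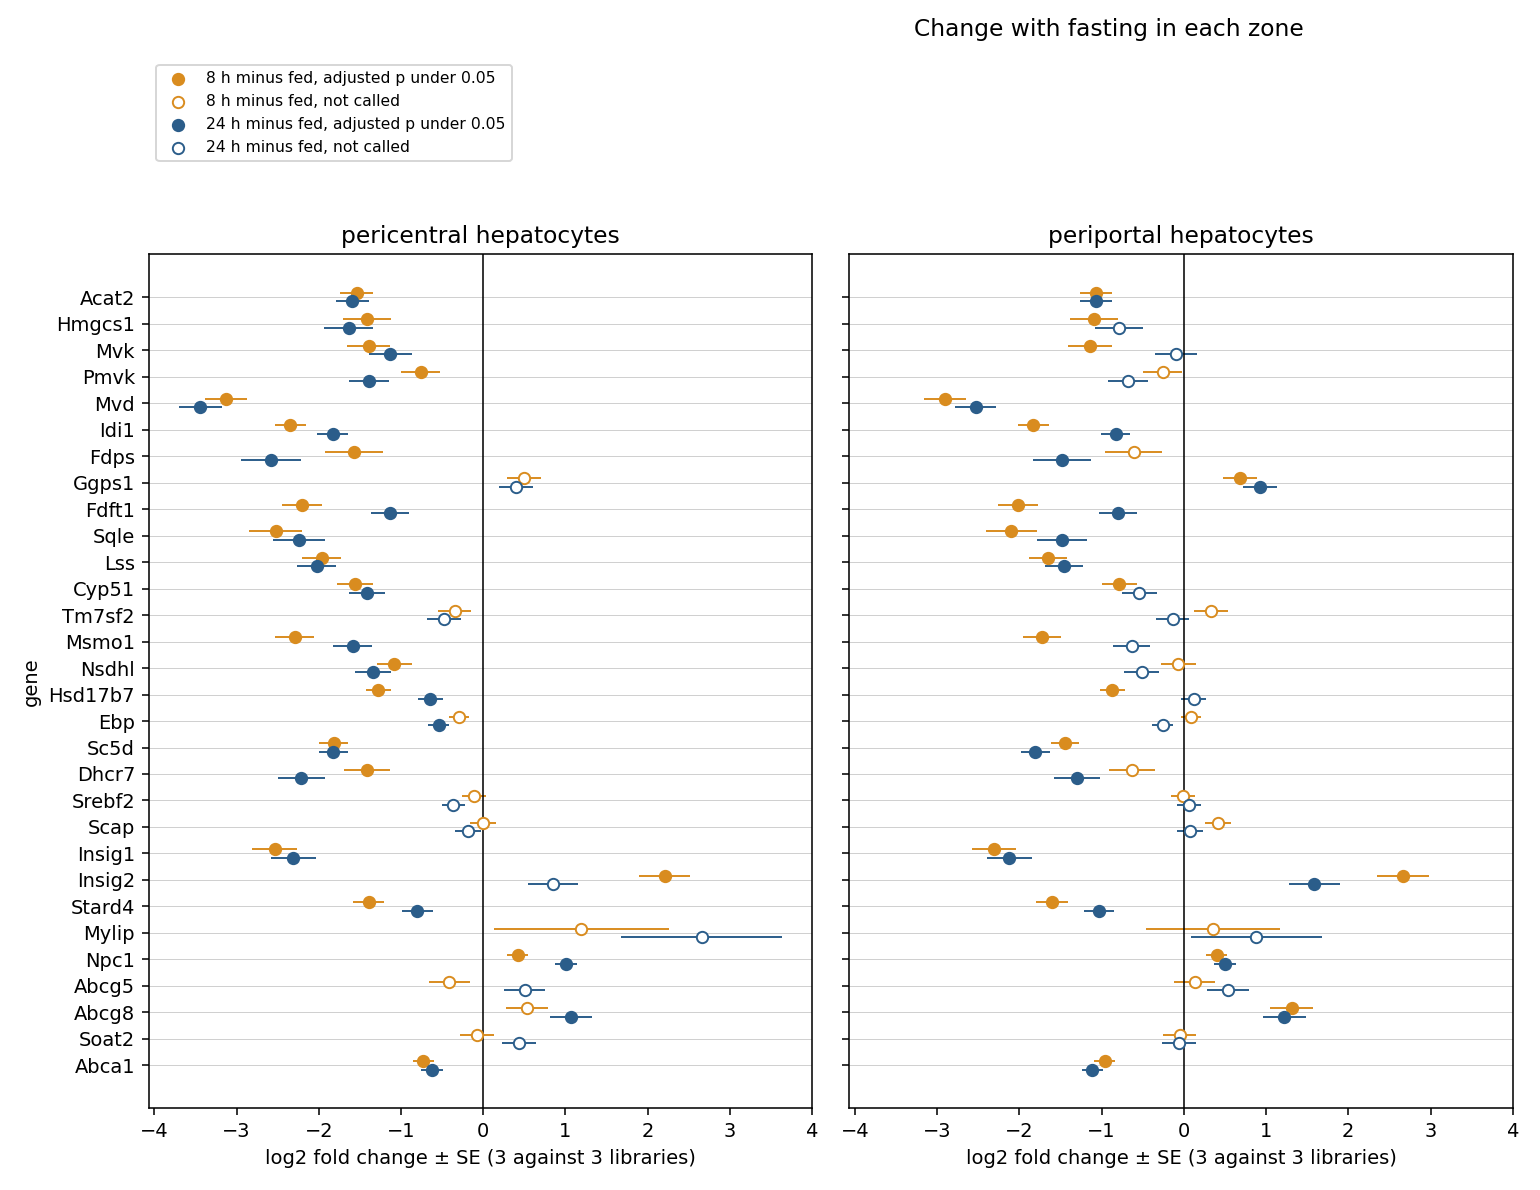
Log2 fold change (± SE) of each cholesterol gene at 8 h (orange) and 24 h (blue) of fasting against the fed state, in pericentral (left) and periportal (right) hepatocytes, from 3 libraries a group. Filled points passed an adjusted p under 0.05, and most synthesis enzymes lie to the left of 0, with Mvd farthest left at -3.44 in pericentral cells at 24 h.

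Among the sensors and regulators, the INSIG genes moved in opposite directions. Insig1 (GRCm38 chr5:28071363-28078662, plus strand), itself a target of SREBP-2, was at 1304, 994 and 1159 CPM in fed pericentral libraries and 210.1, 179.8 and 207 at 8 h. Every fasted library was far below (edgeR log2 fold change -2.53 ± 0.27 SE, adjusted p = 2.1e-05, and -2.31 ± 0.27 with adjusted p = 3.3e-05 at 24 h). Periportal levels were 1477, 1372 and 710.1 CPM fed, 225, 271 and 224 at 8 h and 205, 226 and 387 at 24 h. Fed replicate 3 was the lowest of these fed libraries but above all fasted ones (-2.31 ± 0.27 with adjusted p = 4.8e-05 and -2.12 ± 0.27 with adjusted p = 7.3e-05).

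Insig2 (GRCm38 chr1:121304353-121332589, minus strand), known as an isoform whose liver transcript rises in fasting, went from 94.1, 91.1 and 92.5 CPM in fed periportal libraries to 356, 776 and 629 at 8 h and 209, 225 and 399.8 at 24 h. All fasted libraries were above all fed ones, with replicate 1 the lowest of both fasted groups (edgeR log2 fold change 2.66 ± 0.32 SE, adjusted p = 7.9e-05 at 8 h, and 1.59 ± 0.31 with adjusted p = 0.0023 at 24 h). In the pericentral zone it rose from 74.9, 91.1 and 80.4 to 336, 444 and 357 CPM at 8 h, also without overlap (2.20 ± 0.32 with adjusted p = 0.00026). At 24 h, pericentral libraries were at 203, 92 and 147 CPM and the change was not called (0.84 ± 0.30, adjusted p = 0.06). Replicate 2, the library that stood apart in its zone markers, was the lowest of these, and without it the change was 1.09 and was called (adjusted p = 0.019). It was also called without 8 h periportal replicate 1 or 24 h periportal replicate 3, with a change of 0.84 each. With all libraries the DESeq2 Wald test called it (0.84, adjusted p = 0.019).

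Srebf2 and Scap were not called in any fasting comparison. Srebf2 group means lay between 42.5 ± 6.74 and 54.7 ± 10.5 CPM (SD, n = 3), and its fitted changes against the fed state between -0.36 and 0.06. Without fed pericentral replicate 2, its change at 24 h in that zone was -0.50 and was called (adjusted p = 0.025). Scap means lay between 92.2 ± 10.8 and 123 ± 18.7 CPM, with changes from -0.19 to 0.41. These values are of the transcripts, and cleavage of SREBP-2 was not measured.

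Of the transport genes, Stard4, a carrier of cholesterol between membranes and a target of SREBP-2, fell with the enzymes. Its periportal level was 172, 193 and 164 CPM fed and 66.7, 55.9 and 51.8 at 8 h, without overlap (edgeR log2 fold change -1.60 ± 0.19 SE, adjusted p = 4.8e-05, and -1.03 ± 0.19 with adjusted p = 0.0012 at 24 h). The pericentral changes were -1.39 ± 0.19 (adjusted p = 0.00014) and -0.80 ± 0.19 (adjusted p = 0.0058). Npc1, which exports cholesterol from lysosomes, rose. Pericentral levels were 124, 104 and 91.5 CPM fed, 118, 160.2 and 149 at 8 h and 204, 228 and 210.1 at 24 h. All 24 h libraries were above the fed ones (edgeR log2 fold change 1.01 ± 0.13 SE, adjusted p = 5.4e-05), whereas the lowest 8 h library lay within the fed range.

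The other rises of Npc1 were small and less stable. The call at 8 h in the pericentral zone (0.42 ± 0.13 with adjusted p = 0.039) was lost without any 1 of fed pericentral replicates 2 and 3, 8 h pericentral replicates 2 and 3 and 8 h periportal replicate 2 (0.32 to 0.42). In the periportal zone the 8 h call (0.40 ± 0.13 with adjusted p = 0.047) was lost without any 1 of fed pericentral replicate 2, fed periportal replicates 1 and 3, 8 h pericentral replicate 3, 8 h periportal replicates 1, 2 and 3, 24 h pericentral replicates 1, 2 and 3 and 24 h periportal replicates 2 and 3 (0.33 to 0.41), and the 24 h call (0.50 ± 0.13 with adjusted p = 0.012) without fed periportal replicate 1 (0.43) or 24 h periportal replicate 1 (0.40). These 3 calls were also lost under library totals of all but the 20 most abundant genes. Mylip, the ubiquitin ligase that marks lipoprotein receptors for degradation, was barely detected, with 0 to 38 counts a library, and gave no fasting call by edgeR with all libraries. Its pericentral change at 24 h (2.66) was called without 8 h periportal replicate 3 (2.65) or 24 h pericentral replicate 1 (3.06). With all libraries the DESeq2 Wald test called this change (2.73, adjusted p = 0.029).

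Abcg5 and Abcg8 encode the paired subunits of the sterol transporter of the bile canaliculus and lie on opposite strands of chromosome 17. One of the 2 RefSeq starts of Abcg8 is 110 bases from that of Abcg5, and the other lies within Abcg5. Abcg8 rose from 33.7, 38.5 and 33.8 CPM in fed periportal libraries to 80.9, 71.4 and 111 at 8 h and 100.4, 80.7 and 66.4 at 24 h. All fasted libraries were higher (edgeR log2 fold change 1.31 ± 0.26 SE, adjusted p = 0.0038 at 8 h, and 1.22 ± 0.26 with adjusted p = 0.0043 at 24 h). In the pericentral zone it was at 43.7, 93.9 and 45.3 CPM fed, 73.4, 85 and 106 at 8 h and 129, 138 and 116 at 24 h. Fed replicate 2 was high and overlapped the 8 h group, and only the 24 h change was called (1.07 ± 0.26 with adjusted p = 0.0084). Without that fed library the 8 h change was 1.0 instead of 0.53, and was called (adjusted p = 0.004).

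Abcg5 was not called against the fed state in either zone with all libraries in the fit. Its fed pericentral libraries, at 45.8, 106 and 66.2 CPM, had the same high replicate 2, and the 24 h libraries were at 102, 114 and 92.7. Without that fed library the 24 h change was 0.87 instead of 0.50, and was called (adjusted p = 0.013). The periportal change at 24 h was called only with the fed and 24 h periportal groups alone in the edgeR fit (0.54, adjusted p = 0.017). Exons of the 2 genes overlap by 82 bases on opposite strands, and whether any reads were shared was not measured.

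Abca1 (GRCm38 chr4:53030787-53159895, minus strand) fell in both zones. Periportal libraries were at 296, 272 and 285 CPM fed, 155, 139 and 143 at 8 h and 158, 113 and 124 at 24 h. All fasted libraries were lower (edgeR log2 fold change -1.11 ± 0.13 SE, adjusted p = 2.9e-05 at 24 h, and -0.96 ± 0.13 with adjusted p = 0.00013 at 8 h). The pericentral changes were -0.73 ± 0.13 (adjusted p = 0.0011) and -0.62 ± 0.13 (adjusted p = 0.0025). Macrophages also express Abca1. The summed Kupffer cell and leukocyte markers were 6.31–10.8 CPM in fed, 0.767–18 in 8 h and 2.57–29.4 in 24 h periportal libraries, and their part in the result was not tested. Soat2, which esterifies cholesterol for storage and secretion, was not called, with group means between 34.1 ± 9.28 and 48.6 ± 5.19 CPM (SD, n = 3). Its pericentral change at 24 h (0.44) was called only with those 2 groups alone in the edgeR fit (0.43, adjusted p = 0.03).

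**Figure D3:**
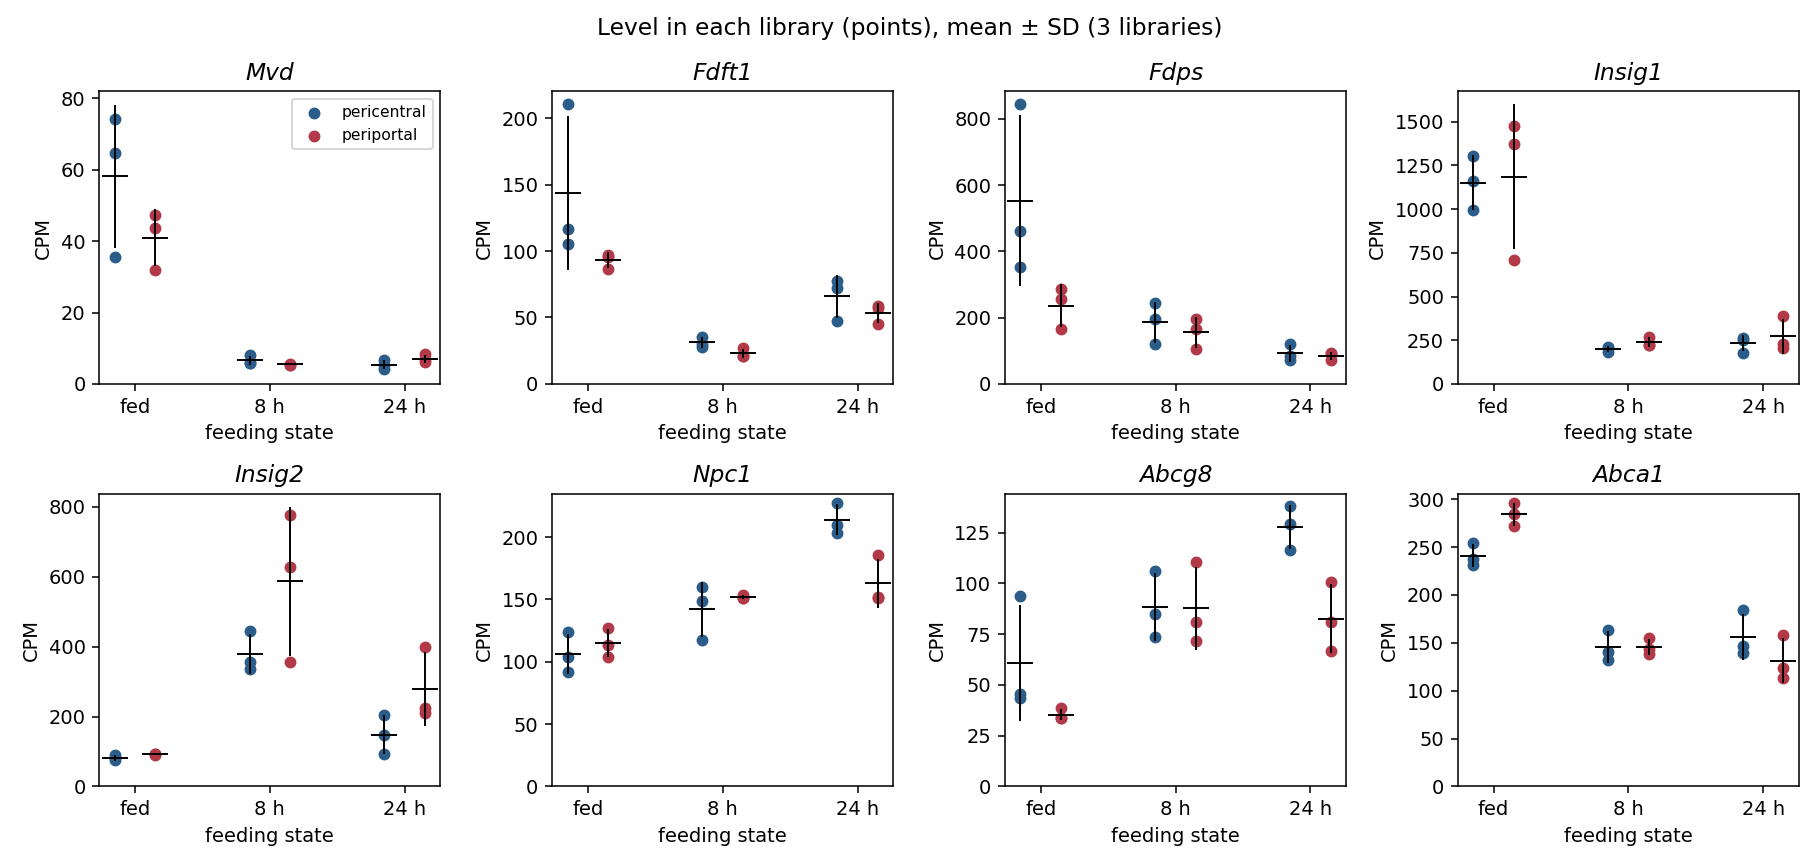
CPM in each library (points) with mean ± SD of 3 libraries (black) for 8 genes, in fed, 8 h and 24 h hepatocytes of the pericentral (blue) and periportal (red) zones; axes start at 0. Mvd and Insig1 are low at 8 h and 24 h, Fdft1 climbs back in part from 8 h to 24 h, and Insig2 is highest at 8 h.

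Between 8 h and 24 h few of the genes were called. In pericentral cells 4 of the 30 genes rose and 1 fell (background 9.71%, of which 5.2% higher and 4.51% lower), with a median of 0.05 that became -0.03 under library totals of all but the 20 most abundant genes and -0.02 over genes with a mean of at least 1 CPM. In periportal cells 5 rose and 1 fell (background 7.46%, of which 3.22% higher and 4.24% lower, median 0.14 beside -0.02 over all genes). Scaling by those library totals changed the pericentral split to 3 higher and 2 lower. Without the 24 h pericentral replicate 2 it was 3 higher and 1 lower, and the number called in this comparison went from 2 (without 8 h pericentral replicate 1 or without 24 h pericentral replicate 3) to 8 (without fed pericentral replicate 3), with 3 without 8 h pericentral replicate 2. The periportal number was 3 without 8 h periportal replicate 2, and the periportal median was 0.07 without 24 h periportal replicate 1 or 3. Clock hour also differed between these times.

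Fdft1 rose in both zones. Pericentral libraries were at 30.3, 27.8 and 35.6 CPM at 8 h and 47.5, 77.7 and 72.3 at 24 h, and periportal ones at 20.9, 21.3 and 27 and 58.3, 44.9 and 57.2, with no overlap in either (edgeR 1.07 ± 0.23 with adjusted p = 0.01 and 1.21 ± 0.24 with adjusted p = 0.0071). Of the exon bases of Fdft1, 18.3% overlap exons of Ctsb on the other strand. Hsd17b7 also rose in both, from 42.9, 34 and 52.7 to 81.6, 82.9 and 93.5 CPM in the periportal zone (0.99 ± 0.15 with adjusted p = 0.0013) and by 0.63 ± 0.15 (adjusted p = 0.015) in the pericentral zone. The pericentral call was lost without 8 h pericentral replicate 1 (0.60), 8 h pericentral replicate 2 (0.54) or 24 h pericentral replicate 3 (0.55). Periportal Idi1 climbed from 71.8, 83.2 and 70.0 to 160.4, 152 and 138 CPM, with all 24 h libraries higher (1.0 ± 0.18 with adjusted p = 0.0036).

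Periportal Msmo1 (1.09 ± 0.23 with adjusted p = 0.011) and Mvk (1.04 ± 0.27 with adjusted p = 0.028) rose as well. The Msmo1 call was lost without 8 h periportal replicate 2 (0.99), and that of Mvk without any 1 of 8 h periportal replicates 1 and 2 and 24 h periportal replicates 1, 2 and 3 (0.89 to 1.13). Fdps, by contrast, had a fitted change of -1.02 ± 0.35 in pericentral and -0.87 ± 0.35 in periportal cells, and Dhcr7 of -0.80 ± 0.28 and -0.67 ± 0.28, none of them called. Without fed pericentral replicate 3, the pericentral changes of Fdps and Dhcr7 were called (adjusted p = 0.048 and 0.02). Of the uncalled pericentral rises, that of Idi1 (0.51) was called without 24 h pericentral replicate 1 (0.70), that of Msmo1 (0.71) without fed pericentral replicate 3 (0.70) or 8 h periportal replicate 3 (0.70), and that of Stard4 (0.59) without fed pericentral replicate 1 (0.58) or 24 h pericentral replicate 1 (0.79). In periportal cells Stard4 (0.57) was called higher without 24 h pericentral replicate 1 (0.56) or 24 h pericentral replicate 2 (0.57), and Ebp (-0.35) lower without 8 h periportal replicate 1 (-0.47).

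Outside the enzymes, Insig2 was lower at 24 h than at 8 h in both zones, with a change of -1.36 ± 0.31 (adjusted p = 0.013) in pericentral and -1.08 ± 0.30 (adjusted p = 0.044) in periportal cells. The first call was lost without 24 h pericentral replicate 3 (-1.36), and the second without any 1 of fed pericentral replicates 1, 2 and 3, fed periportal replicates 1, 2 and 3, 8 h pericentral replicates 1, 2 and 3, 8 h periportal replicates 2 and 3, 24 h pericentral replicate 3 and 24 h periportal replicates 1 and 2 (-1.09 to -0.83). Pericentral Npc1 rose further (0.59 ± 0.13 with adjusted p = 0.0094), a call lost without 8 h pericentral replicate 1 (0.46). Abcg5 went from 51.9, 46.5 and 65.3 CPM at 8 h to 102, 114 and 92.7 at 24 h in the pericentral zone, without overlap (edgeR log2 fold change 0.92 ± 0.25 SE, adjusted p = 0.033). That call was lost without any 1 of 8 h pericentral replicates 1 and 2 and 24 h pericentral replicates 1, 2 and 3 (0.79 to 0.99), and under library totals of all but the 20 most abundant genes.

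In the fed state, 5 synthesis enzymes were lower in periportal than in pericentral hepatocytes. None of the 30 genes was higher (background 8.01%, of which 4.13% lower and 3.89% higher), and 18 of the 19 enzymes had the higher mean in the pericentral zone. The median log2 fold change, periportal minus pericentral, was -0.44 over the 30 genes and -0.58 over the enzymes, beside 0.00 over all genes. Without fed pericentral replicate 3, 3 of the 30 genes were called and the median was -0.24. That library had the lowest Glul and the highest Cyp2f2 of its group, and the part of this in the zone difference was not tested. The number of genes called was 2 without fed periportal replicate 1 or without fed periportal replicate 3. Of the genes not called, Hmgcs1 (-0.95) was called without fed pericentral replicate 2 (-1.22) or 8 h periportal replicate 1 (-0.95), Mvk without fed pericentral replicate 1 (-0.93), Mvd without fed pericentral replicate 2 (-0.77) and Idi1 without 24 h pericentral replicate 1 (-0.51). Tm7sf2 was called without 8 h pericentral replicate 1 (-0.58), and Abcg8 (-0.79) without fed pericentral replicate 1 (-0.98) or fed pericentral replicate 3 (-0.96). With all fed libraries, the DESeq2 Wald test called Hmgcs1 (adjusted p = 0.0083) and Abcg8 (adjusted p = 0.021). By edgeR with the replicate number as a block, Hmgcs1 (adjusted p = 0.047) and Cyp51 (adjusted p = 0.039) were called. With only the fed groups in the edgeR fit, Tm7sf2 was called (adjusted p = 0.024).

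Msmo1 had the smallest adjusted p of these. It was at 260.3, 271 and 476 CPM in fed pericentral and 135, 135 and 179 in fed periportal libraries, without overlap (edgeR log2 fold change -1.16 ± 0.23 SE, adjusted p = 0.0045). Hsd17b7, from the same demethylation complex, was at 139, 99.3 and 136 and 83.8, 73.1 and 80.2 CPM, again without overlap (-0.66 ± 0.15 with adjusted p = 0.011). Both calls held in every alternative that was run. For Nsdhl the levels were 84.8, 94.4 and 116 and 60.1, 68.9 and 39.2 CPM, and the groups did not overlap (-0.81 ± 0.21 with adjusted p = 0.026).

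Acat2 and Fdps were also lower in the periportal zone. Acat2 was at 185, 122 and 214 CPM in pericentral and 106, 121 and 83.1 in periportal libraries, the lowest pericentral one just above the highest periportal one (edgeR log2 fold change -0.75 ± 0.20 SE, adjusted p = 0.026). Fdps was at 462, 353 and 844 and 257, 288 and 165 CPM, without overlap (-1.23 ± 0.35 with adjusted p = 0.044). The call of Acat2 was lost without any 1 of fed pericentral replicates 1 and 3 and fed periportal replicates 1 and 3 (-0.76 to -0.57). That of Fdps was lost without any 1 of fed pericentral replicates 1 and 3, fed periportal replicates 1, 2 and 3, 8 h pericentral replicate 3, 8 h periportal replicate 3, 24 h pericentral replicate 2 and 24 h periportal replicates 1, 2 and 3 (-1.40 to -0.79). For Nsdhl it was lost without any 1 of fed pericentral replicates 2 and 3 and fed periportal replicates 1 and 3 (-0.87 to -0.62).

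Marker sums of other cells, and that of hepatocytes, differed between the same fed groups. Kupffer cell and leukocyte markers summed to 1.69–2.65 CPM in pericentral and 6.31–10.8 in periportal libraries, and endothelial markers to 4.15–6.50 and 14.0–17.2. The 5 hepatocyte markers summed to 6.12e+04–7.15e+04 and 1.15e+05–1.33e+05 CPM. The hepatocyte gap lay mostly in Alb, at 51670, 48970 and 53770 CPM in pericentral and 117000, 101100 and 99660 in periportal libraries. The zones overlapped in Ttr, Apoa1 and Serpina1a. Tat was at 1308, 1321 and 1581 CPM in pericentral and 1781, 2431 and 2209 in periportal libraries. The part of these marker sums in the zone difference was not tested.

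After fasting, no zone difference of a cholesterol gene was called within a feeding state. By edgeR 0 of 30 were called at 8 h (background 7.14%, of which 3.72% higher and 3.42% lower) and 0 at 24 h (background 4.17%, of which 1.7% higher and 2.47% lower), with 3 and 7 at an unadjusted p under 0.05. At 8 h the DESeq2 Wald test and limma-voom also called 0. At 24 h limma-voom called 0 and DESeq2 called 2, Sqle and Insig2. The medians were 0.06 and 0.10, both near 0 and without a stable sign. The first became -0.03 under library totals of all but the 20 most abundant genes and -0.01 without 8 h pericentral replicate 2, and the second -0.06 without 24 h pericentral replicate 1 and 0.00 without 24 h periportal replicate 3. Sqle was at 19.9, 34.2 and 36.9 CPM in pericentral and 64.7, 54.1 and 77.7 in periportal libraries at 24 h, higher in each periportal library (1.11, adjusted p = 0.06), and it was called without fed pericentral replicate 2 (1.11, adjusted p = 0.033) or replicate 3 (1.11, adjusted p = 0.039). Without the first of these, Abcg8 at 24 h was also called lower in the periportal zone (-0.64, adjusted p = 0.049). Leaving out the 24 h pericentral replicate 2 gave 0 calls and a median of 0.06.

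The zone markers also differed in size between the states. The 4 periportal markers had a median log2 fold change, periportal minus pericentral, of 3.59 fed, 3.13 at 8 h and 1.83 at 24 h, and all 4 were called higher in periportal cells each time. In the pericentral zone their sum was 278, 311 and 456 CPM in fed, 466, 491 and 598 in 8 h and 869, 1793 and 806 in 24 h libraries, and all 4 rose from fed to 24 h there. All 3 of the 24 h libraries, not replicate 2 alone, lay above every fed and 8 h one. The 4 pericentral markers had medians of -3.87, -3.65 and -3.73. Of these 8 markers, 0 were called by edgeR for a different change in the zones from fed to 24 h, with the 4 periportal ones at an unadjusted p under 0.05. The part of this in the zone differences of the cholesterol genes was not tested.

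**Figure D4:**
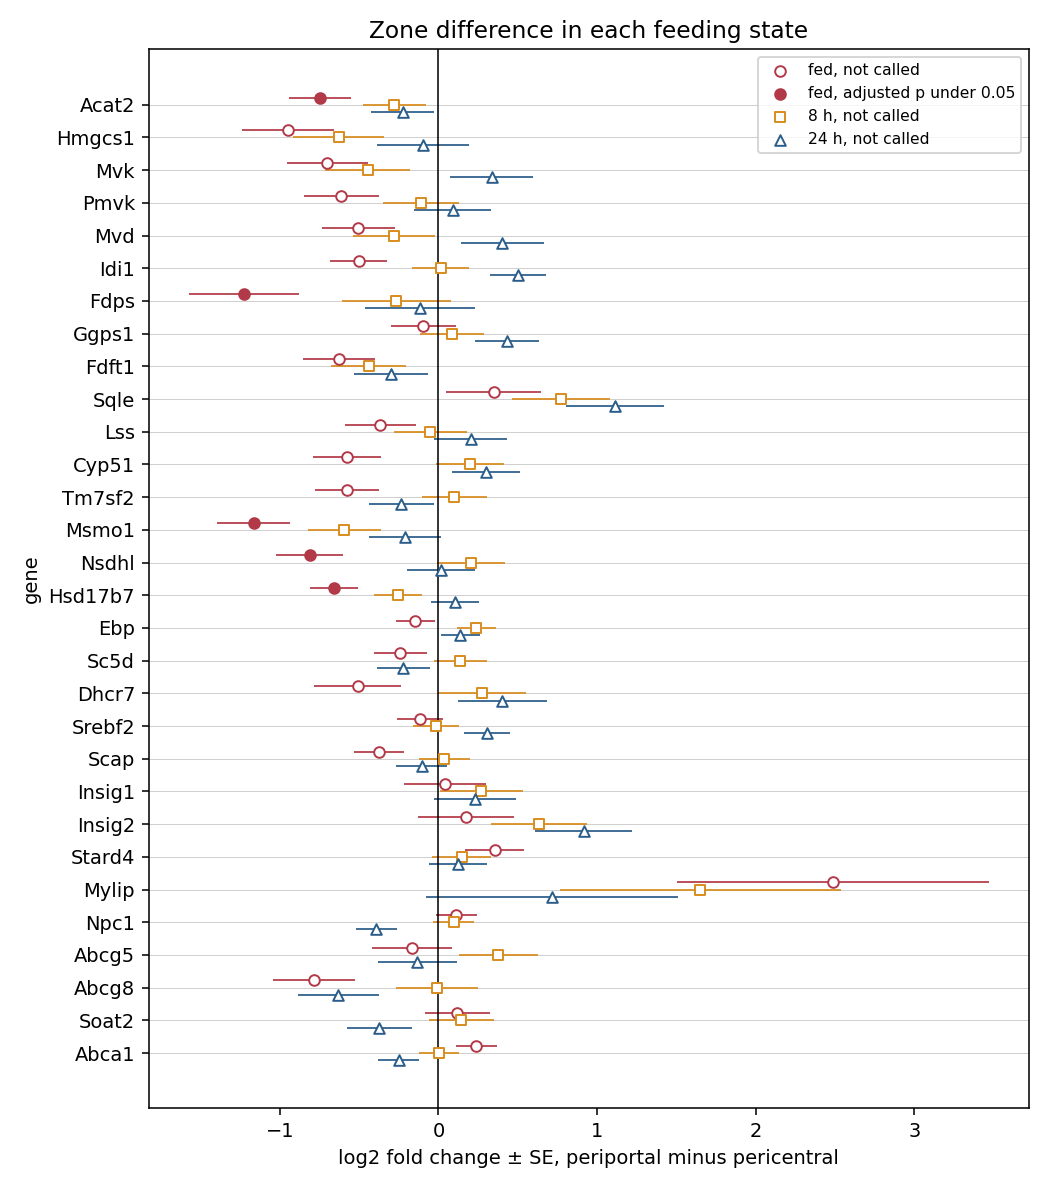
Log2 fold change (± SE), periportal minus pericentral, of each cholesterol gene in fed (red circles), 8 h (orange squares) and 24 h (blue triangles) hepatocytes, 3 libraries a group. Filled points passed an adjusted p under 0.05, and the 5 of them are fed-state enzymes lying left of 0.

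Averaged over the feeding states, 6 genes were lower and 3 higher in periportal cells (background 20.3%, of which 9.96% lower and 10.3% higher, median -0.07 beside 0.00). Lower were Msmo1 (-0.66 ± 0.13 with adjusted p = 0.002), Acat2 (-0.42 ± 0.11 with adjusted p = 0.015), Hmgcs1 (-0.56 ± 0.17 with adjusted p = 0.027), Fdft1 (-0.46 ± 0.13 with adjusted p = 0.024), Hsd17b7 (-0.27 ± 0.09 with adjusted p = 0.037) and Abcg8 (-0.48 ± 0.15 with adjusted p = 0.034). Sqle was the enzyme on the other side, higher in periportal cells by 0.74 ± 0.18 (adjusted p = 0.0074), with Insig2 (0.57 ± 0.17 with adjusted p = 0.03) and Mylip (1.62 ± 0.51 with adjusted p = 0.034). Fed, 8 h and 24 h Sqle was at 141, 88.9 and 200.3, at 27.3, 23.9 and 23.6 and at 19.9, 34.2 and 36.9 CPM in the pericentral zone. The periportal libraries were at 240.3, 176 and 131, at 31.1, 45.1 and 51.7 and at 64.7, 54.1 and 77.7 CPM, and the zones overlapped only in the fed state. Mylip was at 0.0691, 0 and 0.195 CPM in fed pericentral libraries, that is 0 to 5 counts, so that its fold rests on very few reads. In the same comparison 7 of the 10 Kupffer cell and leukocyte markers and 6 of the 7 tested endothelial markers were called higher in periportal cells, with medians of 1.90 and 1.84, and their part in the Mylip difference was not tested.

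Of these averaged zone calls, those of Msmo1, Acat2 and Sqle held in every alternative. The call of Fdft1 was lost without 24 h periportal replicate 2 (-0.42), and that of Hmgcs1 without any 1 of fed periportal replicate 1, 8 h pericentral replicate 3, 8 h periportal replicates 2 and 3, 24 h pericentral replicate 3 and 24 h periportal replicate 2 (-0.54 to -0.50). For Hsd17b7 it was lost without any 1 of fed pericentral replicates 1 and 3, fed periportal replicate 2, 8 h pericentral replicate 3, 8 h periportal replicate 2, 24 h pericentral replicate 3 and 24 h periportal replicates 1 and 2 (-0.26 to -0.22). Abcg8 lost its call without any 1 of fed periportal replicates 1 and 3, 8 h pericentral replicate 3, 8 h periportal replicates 1 and 2, 24 h pericentral replicates 1 and 2 and 24 h periportal replicates 2 and 3 (-0.48 to -0.43). The call of Insig2 was lost without any 1 of fed pericentral replicates 1 and 3, fed periportal replicates 2 and 3, 8 h pericentral replicates 1 and 3, 8 h periportal replicates 2 and 3, 24 h pericentral replicate 3 and 24 h periportal replicate 3 (0.45 to 0.57), and that of Mylip without any 1 of fed pericentral replicates 1 and 2, fed periportal replicates 1 and 2, 8 h pericentral replicates 1 and 2, 8 h periportal replicate 3, 24 h pericentral replicate 1 and 24 h periportal replicates 2 and 3 (1.12 to 1.63). Without the 24 h pericentral replicate 2, 3 genes were higher and 5 lower. The number called was 5 without 8 h pericentral replicate 3 or without 8 h periportal replicate 2, and 4 without 24 h periportal replicate 2. Fdps (-0.54) was called lower without fed pericentral replicate 2 (-0.62) or 8 h pericentral replicate 1 (-0.62), and Tm7sf2 without 8 h pericentral replicate 1 (-0.32).

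Whether fasting acted differently in the zones was tested as the change in periportal minus the change in pericentral cells. None of the 30 genes was called for 8 h against fed, 24 h against fed or 24 h against 8 h (backgrounds 0%, 0.016% and 0%). At an unadjusted p under 0.05 there were 4, 11 and 1. By limma-voom there were 0 in each, and by DESeq2 0, 1 and 0, the 1 being Idi1 (1.01, adjusted p = 0.044, beside 1.01 ± 0.25 with adjusted p = 0.35 by edgeR). The median for 24 h against fed was 0.52 over the 30 genes and 0.77 over the enzymes, beside -0.01 over all genes; the fed libraries enter both this and the fed zone difference. For 8 h against fed it was 0.39, with -0.10 over all genes under library totals of all but the 20 most abundant genes, where it was 0.28. Without fed pericentral replicate 3 the median over the 30 genes was 0.23 for 8 h and 0.34 for 24 h, and without the 24 h pericentral replicate 2 the latter was 0.48. Median changes of the enzymes were -1.54 in pericentral and -1.07 in periportal cells at 8 h, and -1.59 and -0.79 at 24 h.

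Genes that work beside the set were described from another list of 16, of which 15 were tested (Soat1 was not). Against the fed state, 3 rose and 4 fell at 8 h and 2 rose and 4 fell at 24 h in pericentral cells. In periportal cells 2 rose and 2 fell at 8 h, and 2 rose and 3 fell at 24 h. Over all genes tested, 13.8% and 21.8% were called in pericentral and 14.4% and 19.6% in periportal cells. Set medians lay between -0.04 and 0.14 on the log2 scale.

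Erlin1, part of a complex that takes part in sterol-dependent protein degradation, fell in all 4 comparisons. Pericentral levels were 58.1, 60.0 and 66.1 CPM fed, 29.5, 26.3 and 23.6 at 8 h and 31.1, 43.1 and 32.9 at 24 h. No fasted library reached a fed one (edgeR log2 fold change -1.21 ± 0.13 SE, adjusted p = 1.7e-05 at 8 h), and the periportal changes were -1.29 ± 0.13 and -0.97 ± 0.13. Osbp, an exchanger of cholesterol at membrane contacts, fell in all 4 as well, by -0.81 ± 0.11 and -0.95 ± 0.11 at 24 h. Scarb1, the receptor that takes up cholesterol from high-density lipoprotein, rose in all 4. It was at 102, 101 and 114 CPM in fed and 164, 182 and 179 in 8 h periportal libraries, all higher (edgeR log2 fold change 0.73 ± 0.10 SE, adjusted p = 0.00019).

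Of 8 genes that use isoprenoids for ubiquinone, dolichol or protein prenylation, 7 were tested and Pggt1b was not. In each of the 4 fasting comparisons with the fed state, 1 of the 7 fell and none rose, a share near or below that of all genes. At 8 h it was Nus1 (-0.28 ± 0.08 with adjusted p = 0.03 in pericentral and -0.38 ± 0.08 with adjusted p = 0.0054 in periportal cells), and at 24 h Dhdds (-0.58 ± 0.16 with adjusted p = 0.015 and -0.62 ± 0.16 with adjusted p = 0.012). These are the subunits of the enzyme that extends farnesyl diphosphate towards dolichol.

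Some of the genes share annotated exon bases with others, and how many reads this touches was not measured. In the GENCODE annotation of GRCm38, 26.7% of the exon bases of Fdps overlap exons of Gm43738 on the same strand. For Tm7sf2 12.1% overlap exons of Vps51, also on the same strand. The shares of 13.2% for Scap and 12.1% for Hmgcs1 overlap genes on the other strand. The exons of Mvd, Insig1, Insig2, Sqle, Msmo1, Sc5d and Abca1 overlap no other annotated exon.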

How the data were processed

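RNA was measured in 18 libraries, 3 for each of 6 groups. The authors deposited a table of estimated counts per gene, with no normalisation. Per the submitters' processing notes, kallisto 0.46.0 and mm10 were used, with no role given; the use of strand is not given in the sources used here. Values were rounded to units of 1. Identifiers were matched to symbols (27566 of 28030). The genes and lists described were chosen with earlier results of these data known. Named were all listed genes, with fold changes where called.

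Genes passing filterByExpr (12477) were fitted together with edgeR 4.0.16 in R 4.3.3 (TMM, robust quasi-likelihood F test, 1 coefficient per group, 13 contrasts). Adjusted p-values are Benjamini-Hochberg values across the 12477 genes, and calls are those under 0.05. SE is the log2 fold change divided by the square root of F. CPM used TMM-scaled totals. The fit was tested on simulated data. Total counts were 1.84e+07 to 2.64e+07 per library; counting error is small beside the spread of 3 libraries. No pair of replicates agreed within sampling noise (chi-square per gene 35.9 to 122). Alternatives were DESeq2 size factors, library totals of all but the 20 most abundant genes, no filter beyond 1 count, a mean of at least 1 CPM, only the groups compared, a replicate block, the DESeq2 1.42.0 Wald test, limma-voom (limma 3.58.1), and leaving out each library. Promoters came from RefSeq tables of GRCm38.p6 and coordinates from GENCODE for GRCm38. Replicate numbers were checked for pairing by the correlation of deviations from group means. The 24 h pericentral and periportal libraries of the same number correlated at 0.12, 0.17 and 0.15. No other pair of groups had all 3 over 0.1. Between feeding states, replicate 1 of the 8 h and 24 h periportal groups correlated at 0.21, and replicate 1 of the fed pericentral and 8 h periportal groups at 0.17. The labels state no pairing, and values of this size cannot tell whether the 24 h libraries were paired.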

Additional observations from a re-analysis of the deposited data

How the results depend on the processing

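Of 103 pairs of gene and comparison called by edgeR, 74 were called under every alternative, 83 under all that kept every library and 79 under every omission of 1 library; 0 changed direction. Leaving out 1 library at a time gave 2 to 6 genes called for the zone difference in the fed state, 0 at 8 h, 0 to 2 at 24 h and 4 to 9 averaged over states. It gave 19 to 21 for pericentral 8 h against fed, 22 to 24 for 24 h against fed and 2 to 8 for 24 h against 8 h, and in the periportal zone 16 to 20, 14 to 19 and 3 to 7. With only the fed groups in the fit, 3 genes differed between zones. DESeq2 called 2 for the zone difference at 24 h, 10 for pericentral 24 h against 8 h and 1 for the zone difference in the change from fed to 24 h. With only the groups compared in the fit, which has fewer samples, calls were lost for Acat2, Fdps and Nsdhl in the fed zone difference, Hmgcs1, Mvk, Pmvk and Npc1 at 8 h and Fdft1, Stard4 and Abcg8 at 24 h in the pericentral zone, and Insig2 at 24 h against 8 h in the periportal zone. Without the filter beyond 1 count, Fdps was lost in the fed zone difference, Hmgcs1, Insig2 and Abcg8 in the averaged one, Pmvk at 8 h and Abcg5 at 24 h against 8 h in the pericentral zone, and Npc1 at 8 h and Mvk and Insig2 at 24 h against 8 h in the periportal zone. Limma-voom lost Fdps in the fed zone difference, Mylip in the averaged one, pericentral Pmvk at 8 h and periportal Insig2 at 24 h against 8 h. The cause of these differences was not tested. The labels do not pair replicate numbers. Of 45 same-numbered pairs of libraries, 7 had a correlation of deviations over 0.1 (range -0.12 to 0.21), among them all 3 pairs of the 24 h zones. A block for those libraries alone, chosen after seeing the data, left the 24 h zone difference at 0 calls. With the replicate number as a block, 1 gene (Msmo1) was called for the zone difference at 8 h, other counts stayed within 1.5 times, and 5 calls were lost: Fdps in the fed and Abcg8 in the averaged zone difference, pericentral Pmvk and periportal Npc1 at 8 h, and periportal Insig2 at 24 h against 8 h. The 3 libraries of each group limit the precision.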
